A study of Mus musculus with 24 samples.

Results

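The genes described here are 33 targets of PPARalpha (peroxisome proliferator-activated receptor alpha, encoded by Ppara), listed under fatty acid oxidation and measured in mouse liver. Some members, such as Fgf21, Angptl4, Vnn1, Creb3l3 and Ucp2, are not enzymes of that pathway. The 33 genes were taken as a named list from the 37074 gene names on a single-colour array that reports fluorescence intensity. Each gene was represented by 1 probe, the brightest over all 24 arrays, and all 33 were tested and were well above background on 24 of 24 arrays. The labels give C57BL/6J mice fed for 52 weeks either a control diet or a diet enriched in pesticides, with a labelled age of 68 weeks and livers from males and females. The individual pesticides are not named in the labels, and the title of the series gives the question as metabolic disorders after a mixture at the acceptable daily intake. The 4 groups were labelled male control, labelled female control, labelled male pesticide and labelled female pesticide, with 6 arrays each. The labels do not name the mice, so a p-value here measures the spread between samples. Each of 3 slides carried 2 arrays of every group.

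PPARalpha is a nuclear receptor that binds fatty acids and their derivatives and pairs with the retinoid X receptor on DNA. In liver it is best known for the response to fasting and to fibrate drugs, when it turns on genes for fatty acid uptake, activation, mitochondrial and peroxisomal oxidation and ketone body production. Several of its targets, among them the acyl-CoA thioesterases, Pdk4 and Vnn1, are commonly read as markers of its activity.

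Sex-linked transcripts did not follow the sex titles. Xist, the X-inactivation RNA of female cells, was detected above background on all 12 labelled pesticide and 0 of 12 labelled control arrays. The Y-linked genes Eif2s3y, Ddx3y, Kdm5d and Uty showed the opposite: all 4 were detected on 12 of 12 labelled control and 0 of 12 labelled pesticide arrays. The labelled diet and the sex-linked pattern therefore cannot be told apart, and the titles are given throughout as labels only. Arrays of the same labelled diet share 1 sex-linked pattern, so labelled male minus labelled female within a labelled diet compares arrays with like sex-linked transcripts. Hepatocyte markers were present: 9 of 9 measured genes were well above background on every array, and 0 of 9 passed in any of the 4 comparisons, with 0 or 1 at an unadjusted limma p under 0.05. Some of them lay near the top of the intensity scale, where a difference could be hidden. Alb, for example, lay between 18.86 and 18.91 in all groups, and Serpina1c between 18.57 and 18.68. The number of probes detected on an array ran from 29935 to 39032 with a median of 31519, the spot signal had array medians of 63 to 109, and saturation was found at 0 spots. The highest probe number was that of labelled female pesticide 3, which held none of the outlying values of single genes.

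Promoters of 28 of the 33 genes were matched by symbol in RefSeq (GRCm38.p6), as 31 windows of 300 bases from 250 before to 50 after the start. The element bound by PPARalpha and its partner is a repeat of the letters AGGTCA with 1 free base between the copies. This strict form, 2 copies of AGGTCA around 1 N, was found on either strand in 0 of the 28 genes. Among all 27025 genes 0.048% held it, and 0.04% of all 32851 promoters. So rare a match is hardly to be expected among 28 genes, so the 0 says little about them. Sites outside the windows were not searched. A relaxed form takes in every strict match: NGGNCA, any base, then AGGNCA. It was found in Acot4 and Fabp1, 2 of the 28 genes, and in 0.929% of all genes (0.798% of all promoters). The letters CAAAGTCCA, a site of the liver factor HNF4, were found in 0 of the 28 and in 0.555% of all genes (0.475% of all promoters). The 250 bases before the start are shown for the pair of genes with a match and for Acot3 (the first of its listed starts), the neighbour of Acot4 with the largest difference in intensity. Capitals mark the relaxed repeat, which lies on the strand opposite to each gene and starts at position -13 in Acot4 and -67 in Fabp1, and the windows were chosen after the matches were seen. They are chr12:84038129-84038378 for Acot4, chr6:71199629-71199878 for Fabp1 and chr12:84051894-84052143 for Acot3, all on the plus strand.
Acot4: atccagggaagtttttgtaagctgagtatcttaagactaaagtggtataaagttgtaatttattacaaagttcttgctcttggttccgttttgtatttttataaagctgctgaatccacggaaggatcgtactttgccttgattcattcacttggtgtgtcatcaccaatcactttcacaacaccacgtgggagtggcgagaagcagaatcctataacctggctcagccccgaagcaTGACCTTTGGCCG
Fabp1: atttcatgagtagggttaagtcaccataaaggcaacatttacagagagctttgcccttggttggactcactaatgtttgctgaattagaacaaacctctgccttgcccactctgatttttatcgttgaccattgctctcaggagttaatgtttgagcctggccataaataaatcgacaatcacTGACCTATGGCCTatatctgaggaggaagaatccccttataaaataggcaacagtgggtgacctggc
Acot3: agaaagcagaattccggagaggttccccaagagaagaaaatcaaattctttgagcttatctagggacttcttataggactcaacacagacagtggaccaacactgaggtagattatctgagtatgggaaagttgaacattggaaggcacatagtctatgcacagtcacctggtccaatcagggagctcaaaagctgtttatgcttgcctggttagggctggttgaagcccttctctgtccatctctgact
A match is a run of letters in this window, and no binding was measured. Acot4 and Fabp1 differed in their intensities as described next: Acot4 was higher in both labelled pesticide groups, and Fabp1 was the steadiest of the 33 genes. Fabp1 lay near the top of the intensity scale, where quantile normalization gives different arrays the same few values. How far this limits its spread was not tested.

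The first question was whether the targets differed between the labelled diets. In the labelled males, 7 of the 33 genes passed (limma, Benjamini-Hochberg adjusted p under 0.05 over all 32078 tested probes), 5 higher and 2 lower in labelled pesticide, where 22.2% of all tested probes passed, 11.6% higher and 10.7% lower. In the labelled females, 9 of 33 passed, 7 higher and 2 lower, where 18.3% of all probes passed, 8.88% higher and 9.44% lower. Groups did not overlap for 4 of the 33 genes in labelled males (10.2% of all probes) and for 2 in labelled females (7.82%). The same 7 genes passed in both: Acot3, Acot4, Pdk4, Vnn1 and Ucp2 were higher, and Acsl1 and Acaa1a were lower. The share of all probes that passed in both is not given, so this overlap is a list of genes only. Ehhadh and Slc22a5 passed in the labelled females only, without a difference between the sexes that passed. The median difference over the 33 genes was -0.02 in labelled males and 0.11 in labelled females on the log2 scale, against -0.03 and -0.02 over all tested probes. The share that passed was near the background in labelled males. With each array scaled to its 75th percentile in place of quantile normalization, the labelled male count was 5 higher and 6 lower, with Cpt1a, Acaa1b and Creb3l3 among the added genes, and 22.7% of all probes passed. With the processed signal scaled in this way it was 5 higher and 7 lower, and 24.1% of all probes passed. Of the further probes of called genes, 5 of 6 in labelled males and 3 of 7 in labelled females were called too, with 0 calls in the opposite direction. Among those not called in labelled females were the second probes of Acaa1a (-0.20 ± 0.15, adjusted p = 0.38, limma) and Ucp2 (0.67 ± 0.25, adjusted p = 0.060, limma).

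Acot3, one of the acyl-CoA thioesterases, which release free fatty acids from coenzyme A, held the largest difference of the 33 genes in each labelled sex. Acot2, Acot1, Acot4 and Acot3 lie in this order within 66.0 kb of chromosome 12 (mm9, 85334553 to 85400511 from the first to the last probe). Acot3 acts in peroxisomes, and its log2 intensity (lowest, median, highest of 6 arrays) was 8.81, 11.00 and 12.50 in labelled male control and 13.48, 14.27 and 14.42 in labelled male pesticide. It was 11.22, 12.44 and 13.01 in labelled female control and 13.73, 14.16 and 15.26 in labelled female pesticide. Every labelled pesticide array was above every labelled control array, and the labelled male control arrays spread over the widest range. Acot3 rose by 3.24 ± 0.42 (log2, SE) in labelled males, a 9.48-fold difference (adjusted p = 5.1e-06, limma). In labelled females it rose by 2.21 ± 0.42, or 4.62-fold (adjusted p = 7e-04, limma). The rises in the labelled sexes were not shown to differ (limma interaction, adjusted p = 1).

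Acot4, also peroxisomal, was 9.56, 10.46 and 11.07 in labelled male control and 11.28, 11.60 and 12.04 in labelled male pesticide (lowest, median, highest log2 intensity). In labelled female control it was 10.46, 11.06 and 11.34, and in labelled female pesticide 11.23, 12.001 and 12.15. The groups did not overlap in labelled males, and they overlapped slightly in labelled females. The rise was 1.21 ± 0.21 (SE, adjusted p = 2e-04, limma) and 0.86 ± 0.21 (adjusted p = 0.0054, limma). The neighbouring genes Acot1, a cytosolic enzyme, and Acot2, its mitochondrial counterpart, did not pass. Acot2 differed by 0.65 ± 0.30 in labelled males (adjusted p = 0.12, limma) and 0.70 ± 0.30 in labelled females (adjusted p = 0.10, limma). Acot1 differed by -0.01 ± 0.31 in labelled males and 0.81 ± 0.31 in labelled females (adjusted p = 0.99 and 0.068, limma). These enzymes are close in sequence, and how far each probe separates them was not tested.

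Pdk4, the kinase that switches pyruvate dehydrogenase off and spares glucose while fat is burned, showed the next largest rise. Its log2 intensity was 9.40, 10.52 and 11.10 in labelled male control against 11.01, 12.10 and 12.74 in labelled male pesticide. It was 10.88, 11.24 and 11.42 in labelled female control against 11.94, 12.39 and 12.70 in labelled female pesticide. The labelled female groups were apart, while 1 labelled male pesticide array lay within the labelled male control range. Pdk4 rose by 1.63 ± 0.28 (3.10-fold, adjusted p = 0.00021, limma) and by 1.15 ± 0.28 (2.22-fold, adjusted p = 0.0062, limma). Vnn1, a pantetheinase that is a sensitive liver target of the receptor, had medians of 11.19 and 11.93 in the labelled male control and pesticide groups and 11.89 and 12.50 in the labelled female groups. The ranges overlapped in both. Vnn1 rose by 0.91 ± 0.24 (adjusted p = 0.0083, limma) and by 0.69 ± 0.24 (adjusted p = 0.047, limma).

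**Figure D1:**
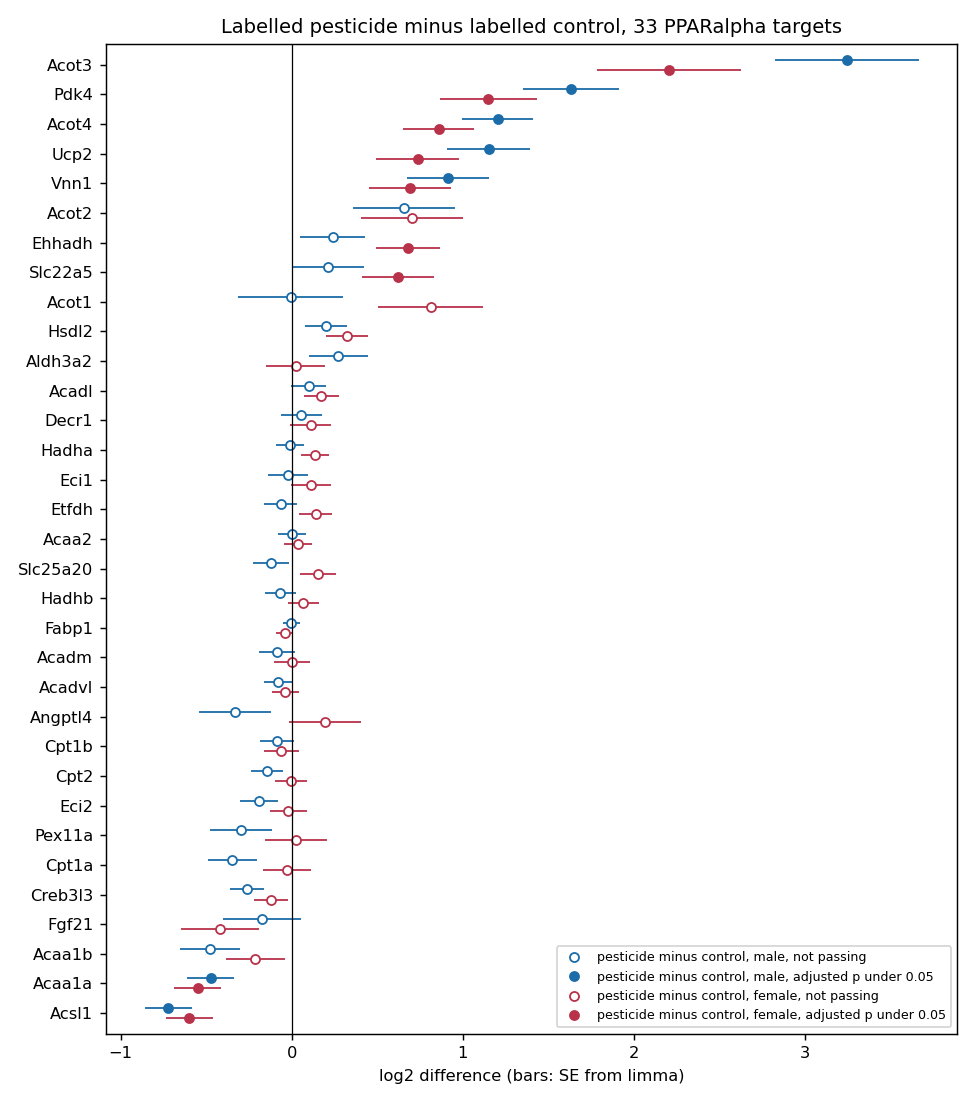
Log2 difference of each of the 33 genes, labelled pesticide minus labelled control, in labelled males (blue) and labelled females (red), with bars for the standard error from limma. Filled points passed at an adjusted p under 0.05: Acot3 lies farthest to the right at 3.24 and 2.21, and Acsl1 farthest to the left at -0.72 and -0.60.

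Genes of fatty acid activation and uptake went in different directions. Acsl1, the main long-chain acyl-CoA synthetase of liver, was 15.93, 16.19 and 16.70 in labelled male control and 15.38, 15.53 and 15.84 in labelled male pesticide (lowest, median, highest log2 intensity). It was 16.12, 16.38 and 16.81 in labelled female control and 15.51, 15.78 and 16.26 in labelled female pesticide. The labelled male groups did not overlap. Acsl1 fell by 0.72 ± 0.14 (SE, adjusted p = 0.00059, limma) and by 0.60 ± 0.14 (adjusted p = 0.0037, limma). Slc22a5, the carnitine transporter of the cell surface, rose by 0.62 ± 0.21 in labelled females (adjusted p = 0.043, limma) and differed by 0.21 ± 0.21 in labelled males. Fabp1, the abundant fatty acid binding protein of liver, lay between 18.25 and 18.45 in all groups, with differences of -0.00 ± 0.05 and -0.04 ± 0.05. These values lie near the top of the scale, so a larger difference could be hidden.

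Peroxisomal oxidation was split as well. Ehhadh, the bifunctional enzyme of the peroxisomal pathway, rose by 0.68 ± 0.19 in labelled females (adjusted p = 0.014, limma) and differed by 0.24 ± 0.19 in labelled males (adjusted p = 0.40). Acaa1a, the peroxisomal thiolase, fell by 0.47 ± 0.14 (adjusted p = 0.015, limma) and by 0.55 ± 0.14 (adjusted p = 0.0067, limma). Its close copy Acaa1b differed by -0.48 ± 0.17 (adjusted p = 0.051, limma) and -0.21 ± 0.17 (adjusted p = 0.43, limma), and the probes of such copies may share signal. Pex11a, a peroxisome division protein, differed by -0.30 ± 0.18 and 0.03 ± 0.18, neither of which passed.

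Of the carnitine shuttle, Cpt1a, Cpt1b, Cpt2 and Slc25a20 did not pass in either labelled sex, and neither did the mitochondrial enzymes Acadm, Acadl, Acadvl, Hadha, Hadhb, Acaa2, Eci1, Eci2, Decr1 and Etfdh. Under scaling to the 75th percentile Cpt1a passed in labelled males. Cpt1a, which controls entry of fatty acids into mitochondria, differed by -0.35 ± 0.14 (95% interval -0.64 to -0.05, adjusted p = 0.084, limma) and by -0.03 ± 0.14 (-0.32 to 0.27). At their main probes, Hadha and Hadhb, the subunits of the trifunctional protein, differed by at most 0.13 in size (Hadha in labelled females). Further probes of Hadhb differed by 0.250 and 0.246 in labelled females and by -0.06 and 0.21 in labelled males, without a call. Acaa2, the last thiolase of the mitochondrial spiral, differed by 0.00 ± 0.08 and 0.04 ± 0.08. Among the secreted targets, Fgf21, a hormone of the fasting response, differed by -0.17 ± 0.23 and -0.42 ± 0.23. Angptl4, an inhibitor of lipoprotein lipase, differed by -0.33 ± 0.21 and 0.20 ± 0.21. Creb3l3, a liver transcription factor that works with the receptor on Fgf21, differed by -0.26 ± 0.10 (adjusted p = 0.056, limma) and -0.12 ± 0.10. Over all genes that did not pass, the differences ran from -0.48 (Acaa1b) to 0.65 (Acot2) in labelled males and from -0.42 (Fgf21) to 0.81 (Acot1) in labelled females.

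Ucp2, a mitochondrial carrier that is also expressed in macrophages, moved together with the macrophage markers. It was 7.94, 8.02 and 8.93 in labelled male control and 9.003, 9.31 and 10.05 in labelled male pesticide (lowest, median, highest log2 intensity). It was 8.28, 8.46 and 9.67 in labelled female control and 8.99, 9.44 and 9.89 in labelled female pesticide. The labelled male groups were apart and the labelled female groups overlapped. Ucp2 rose by 1.15 ± 0.24 (SE, adjusted p = 0.0016, limma) and by 0.73 ± 0.24 (adjusted p = 0.038, limma). The highest labelled female control value, 9.67, was on array 4, which also had the highest Clec4f (13.51), Cd68 (11.92), Nkg7 (11.12) and Cd3g (8.76) of its group and the lowest mean correlation with the other arrays of its own group of all 24 arrays (r = 0.986). Without this array Ucp2 rose by 0.91 in labelled females (adjusted p = 0.0065, limma). Of 12 Kupffer cell and macrophage markers, 11 rose and 0 fell in each labelled sex, with Vsig4 at 1.88 ± 0.26 and 1.65 ± 0.26 and Clec4f at 1.43 ± 0.23 and 1.24 ± 0.23. None of the 12 was at background in any group. The mean log2 level of the markers was 9.84 to 11.47 in labelled male control and 11.20 to 12.01 in labelled male pesticide, and 9.64 to 11.89 and 10.76 to 12.37 in the labelled female groups in that order. Within groups, with each array taken as its deviation from the group mean, Ucp2 followed Clec4f (Pearson r = 0.79, adjusted permutation p = 0.00015, Spearman rho = 0.82, adjusted permutation p = 0.00011, 24 arrays) and Cd68 (r = 0.77, adjusted permutation p = 0.00015, rho = 0.80, adjusted permutation p = 0.00033). Without the 2 arrays farthest from the median of Ucp2 the values were r = 0.70 and r = 0.65. Both pairs were chosen with earlier results of these data known, which the p-values do not take into account. The part of these cells in the Ucp2 difference was not tested, and in whole liver more cells of a type and more RNA per cell cannot be told apart.

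**Figure D2:**
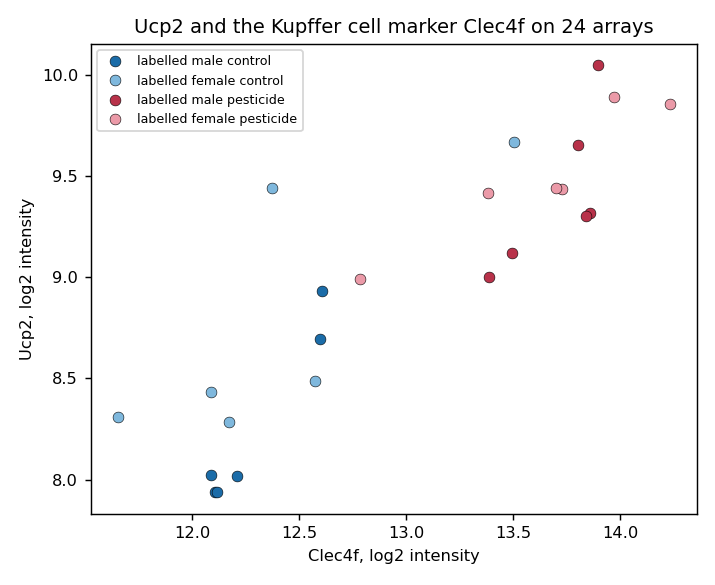
Log2 intensity of Ucp2 against that of the Kupffer cell marker Clec4f, 1 point per array, coloured by labelled group. Arrays high in Clec4f were high in Ucp2 within each colour, and the labelled male pesticide arrays (9.003 to 10.05 in Ucp2) lie above all labelled male control arrays.

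Other markers moved with the labelled diet too. In labelled males and females respectively, 6 and 5 of 7 endothelial markers, 6 and 3 of 8 stellate and fibrosis markers, 3 and 3 of 4 neutrophil markers, 2 and 1 of 5 T and NK markers and 4 and 0 of 5 B and plasma markers were higher, and 0 were lower. Of 3 measured adipocyte markers, 1 was lower in each labelled sex. Of 2 measured exocrine pancreas markers, 1 was lower in labelled males. Bile duct and skeletal muscle markers gave 0 calls. The defining genes Adipoq, Plin1, Ckm, Acta1, Prss1, Cpa1 and Pnlip did not pass the filter on dim probes. Their part in the differences of the 33 genes was not tested.

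The second question was whether the targets differed between the labelled sexes on the same labelled diet. No probe passed in either comparison: limma called 0 of 32078 (0%) in labelled control and 0 (0%) in labelled pesticide, with 1792 (5.59%) and 1311 (4.09%) at an unadjusted p under 0.05. Of the 33 genes, 31 were below 0 in labelled control (labelled male minus labelled female), where 48.0% of all probes were. All 33 of 33 were below 0 in labelled pesticide, where 47.7% of all probes were. The genes varied together among arrays of 1 group (median r = 0.40 over pairs, given below). Counts of genes, here and at an unadjusted p, are therefore not counts of independent genes and carry no p-value. At an unadjusted p under 0.05, 9 of 33 were lower in labelled males and 0 higher in labelled control, against 2.46% of all probes lower. In labelled pesticide 18 of 33 were lower and 0 higher, against 1.89% of all probes lower. The 2 sets shared 4 genes and together held 23. The median over the 33 genes was -0.15 and -0.27 on the log2 scale, against 0.01 and 0.01 over all probes. None of the 33 genes differed between the 2 comparisons at an unadjusted p under 0.05 (0 of 33, with 3.94% of all probes; 0 of 32078 after adjustment).

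**Figure D3:**
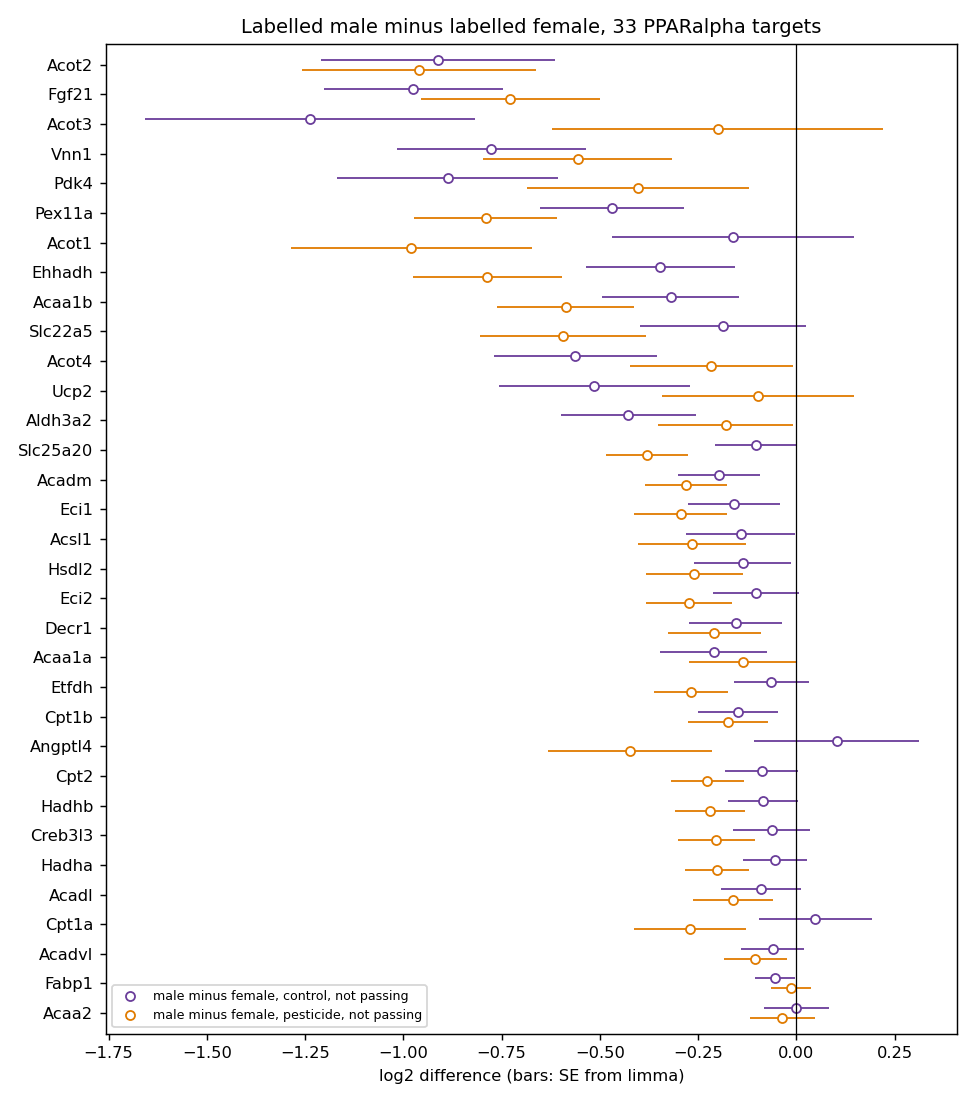
Log2 difference of each of the 33 genes, labelled male minus labelled female, on labelled control (purple) and labelled pesticide (orange), with bars for the standard error from limma. All points are open because none passed, and all lie left of 0 but Cpt1a (0.05) and Angptl4 (0.10) on labelled control.

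Fgf21 had the smallest p of the list on labelled control. Its log2 intensity was 8.83, 9.09 and 9.48 in labelled male control and 9.26, 10.104 and 10.99 in labelled female control (lowest, median, highest). It was 8.30, 9.09 and 9.21 in labelled male pesticide and 9.04, 9.72 and 10.35 in labelled female pesticide. In each labelled diet only the lowest labelled female array fell within the labelled male range. The difference was -0.97 ± 0.23 (SE, unadjusted p = 0.00026, adjusted p = 0.28, limma) and -0.73 ± 0.23 (unadjusted p = 0.0039, adjusted p = 1, limma).

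Ehhadh and Pex11a, both of the peroxisome, had the smallest p on labelled pesticide. Ehhadh was 13.66, 14.08 and 14.33 in labelled male pesticide and 14.52, 14.83 and 15.29 in labelled female pesticide (lowest, median, highest log2 intensity). It was the single gene of the 33 whose groups did not overlap in a same-diet comparison, where 0.271% of all probes did not overlap on labelled pesticide and 0.436% on labelled control. Its difference was -0.79 ± 0.19 (unadjusted p = 0.00035, adjusted p = 0.72, limma), and -0.35 ± 0.19 on labelled control. Pex11a was 14.77, 15.04 and 15.64 against 15.39, 15.86 and 16.52, overlapping groups with a difference of -0.79 ± 0.18 (unadjusted p = 0.00022, adjusted p = 0.72, limma). On labelled control it differed by -0.47 ± 0.18. Acaa1b differed by -0.59 ± 0.17 on labelled pesticide and by -0.32 ± 0.17 on labelled control.

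Among the thioesterases, Acot2 differed by about the same amount on both labelled diets. On labelled control it was 9.11, 9.97 and 10.67 in labelled males and 10.15, 10.86 and 11.63 in labelled females (lowest, median, highest log2 intensity). On labelled pesticide it was 10.01, 10.53 and 11.15 in labelled males and 10.84, 11.66 and 12.44 in labelled females. The groups overlapped on both, with differences of -0.91 ± 0.30 and -0.96 ± 0.30 (adjusted p = 0.51 and 1, limma). Acot1 differed by -0.98 ± 0.31 on labelled pesticide and by -0.16 ± 0.31 on labelled control. Acot3 differed by -1.24 ± 0.42 on labelled control, the single gene of the 33 past 2-fold in a same-diet comparison, and by -0.20 ± 0.42 on labelled pesticide. Pdk4 (-0.89 ± 0.28), Vnn1 (-0.78 ± 0.24), Acot4 (-0.56 ± 0.21), Ucp2 (-0.51 ± 0.24) and Aldh3a2 (-0.43 ± 0.17) completed the 9 genes with an unadjusted p under 0.05 on labelled control, and their adjusted p ran from 0.42 to 0.88 (limma).

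The remaining genes with an unadjusted p under 0.05 on labelled pesticide lay between -0.20 (Hadha) and -0.59 (Slc22a5). Slc25a20, the carnitine carrier of the inner membrane, differed by -0.38 ± 0.10, Acadm, the medium-chain dehydrogenase, by -0.28 ± 0.10 and Etfdh, which passes electrons to the respiratory chain, by -0.27 ± 0.09. Cpt2, Hadha, Hadhb, Eci1 and Eci2 lay between -0.20 and -0.29 there, each with an unadjusted p of 0.020 to 0.022 and an adjusted p of 1 (limma). The same 5 genes lay between -0.05 and -0.16 on labelled control. Slc22a5 (-0.59 ± 0.21), Vnn1 (-0.56 ± 0.24), Hsdl2 (-0.26 ± 0.12) and Creb3l3 (-0.20 ± 0.10) completed the 18 genes with an unadjusted p under 0.05 on labelled pesticide.

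**Figure D4:**
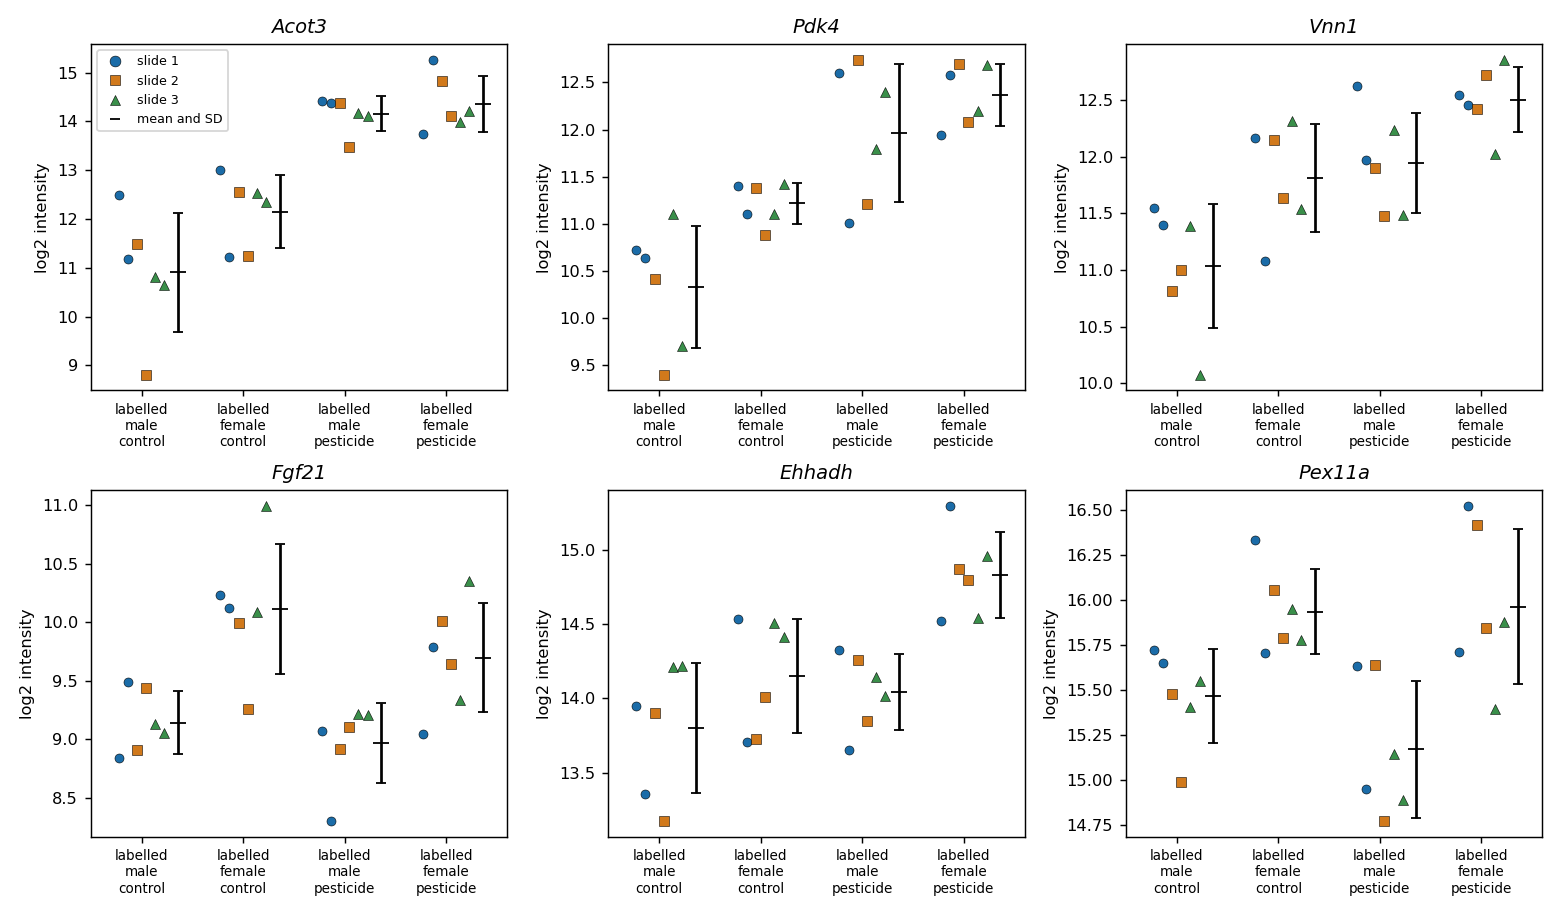
Log2 intensity of Acot3, Pdk4, Vnn1, Fgf21, Ehhadh and Pex11a on each of the 24 arrays, by labelled group, with slides marked by shape and the group mean and SD as bars (n = 6). Acot3 is apart between labelled diets (highest control 13.01, lowest pesticide 13.48), while Ehhadh is apart between the labelled sexes on labelled pesticide (14.33 and 14.52).

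A mean over the 33 genes, taken per array after centring each gene on its own mean over 24 arrays, placed the labelled males below the labelled females on both labelled diets. It was lowest in labelled male control, at -0.25 ± 0.19 (SD, n = 6), then -0.07 ± 0.20 in labelled male pesticide, 0.04 ± 0.18 in labelled female control and 0.28 ± 0.18 in labelled female pesticide. The ranges in this order were -0.55 to -0.07, -0.31 to 0.21, -0.17 to 0.27 and -0.01 to 0.48, so each group overlapped the next, and only the lowest and the highest group were apart. Labelled male minus labelled female was -0.29 and -0.35 on labelled control and labelled pesticide. Labelled pesticide minus labelled control was 0.18 in labelled males and 0.24 in labelled females, while the median over the genes was -0.02 and 0.11. Genes were not scaled to 1 spread, so those with large differences, such as Acot3 (3.24 and 2.21), weigh most. In labelled males 20 of 33 genes were below 0 (56.1% of all probes), and in labelled females 12 (54.0%). By slide, the labelled male control mean was -0.12, -0.47 and -0.16 on slides 1, 2 and 3, and the labelled female control mean was 0.05, -0.10 and 0.17. The labelled male pesticide mean was 0.03, -0.10 and -0.13, and the labelled female pesticide mean was 0.31, 0.35 and 0.18. The labelled male mean was the lower one on each of the 3 slides in both labelled diets. Within slides, 27, 30 and 27 of the 33 genes were below 0 on labelled control and 28, 32 and 31 on labelled pesticide.

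**Figure D5:**
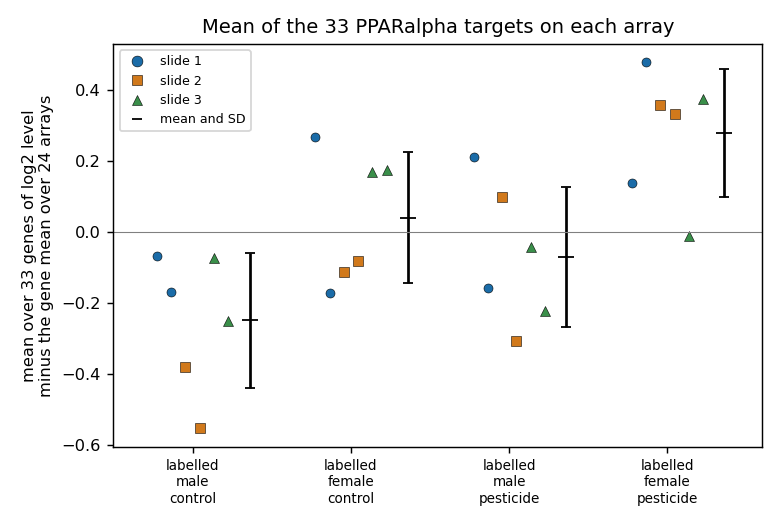
Mean of the 33 genes on each array (log2 intensity, each gene centred on its mean over 24 arrays), by labelled group and slide, with the group mean and SD as bars (n = 6). Labelled female arrays reach 0.27 and 0.48, above the labelled male highs of -0.07 and 0.21 on the same labelled diet.

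The 2 same-diet comparisons were also averaged, which sets all 12 labelled male arrays against all 12 labelled female arrays. In this average 33 of 33 genes were below 0. Its counts rest on the same arrays and are not separate support. Already 31 genes were below 0 in both comparisons. At an unadjusted p under 0.05, 24 of 33 were lower, against 2.45% of all probes, and limma called 0 of 32078 probes, with 1794 at an unadjusted p under 0.05. The smallest adjusted p of the 33 was 0.33 (Fgf21, -0.85 ± 0.16, limma), and 0.35 with slide as a block. This average, the unadjusted counts and the comparison with bright probes were chosen after the data were seen. Of the 1428 tested probes at least as bright as the median of the 33 genes (14.51), 56.4% were below 0 on labelled control and 45.8% on labelled pesticide.

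The 33 genes also varied together among arrays of 1 group. After removal of the group means, 489 of 528 gene pairs (92.6%) had a Pearson r above 0 over 24 arrays, with a median of 0.40. Over pairs of the 1428 bright probes the median was -0.01 and 49.2% were above 0. Angptl4 followed the others least (median r = 0.04 with the other 32 genes) and Eci2 most (median r = 0.60). These values share arrays and normalization and are given as a description. The SD within groups ran from 0.06 (Fabp1) to 0.79 (Acot3).

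Correlation was tested for 11 pairs of genes, with p-values adjusted over the 11. The pairs were chosen with earlier results of these data known, which the p-values do not take into account. Acot1 and Acot2 gave r = 0.77 (adjusted permutation p = 0.00015) and rho = 0.76 (adjusted permutation p = 0.00051), with r = 0.77 without the 2 farthest arrays. How far the probes separate these 2 genes was not tested. Acaa1b and Ehhadh gave r = 0.61 (adjusted permutation p = 0.0043) and rho = 0.62 (adjusted permutation p = 0.0073), with r = 0.61 without those 2. Hadha and Hadhb gave r = 0.54 (adjusted permutation p = 0.033) and rho = 0.52 (adjusted permutation p = 0.049), with r = 0.53 without those 2, but r was 0.01 among labelled male control arrays and 0.68 to 0.90 in the other groups. Pdk4 with Acot1 gave r = 0.46 (adjusted permutation p = 0.065). Pdk4 with Angptl4 (0.34), Pdk4 with Cpt1a (-0.04), Cpt1a with Fgf21 (0.21), Vnn1 with Acot1 (0.23) and Creb3l3 with Fgf21 (0.32) did not pass, with adjusted permutation p from 0.24 to 0.84. Without the 2 farthest arrays these r values were -0.05, 0.01, 0.16, 0.42 and 0.38 in that order, and 0.28 for Pdk4 with Acot1. The last 2 of the 11 were Ucp2 with Clec4f and with Cd68, given above.

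Of 77 other genes of the pathway, 10 rose and 16 fell in labelled males, where 11.6% of all tested probes rose and 10.7% fell. In labelled females 11 rose and 10 fell, against 8.88% and 9.44% of all probes. Ppara itself did not pass (-0.14 ± 0.18 and 0.27 ± 0.18). Plin2, a lipid droplet coat protein (0.06 ± 0.15 and 0.01 ± 0.15), and Cyp4a14 (0.63 ± 0.40 and 0.73 ± 0.40) did not pass either. Cyp4a10, a fatty acid omega-hydroxylase, rose by 1.12 ± 0.19 in labelled females (adjusted p = 0.00017, limma) and differed by 0.40 ± 0.19 in labelled males (adjusted p = 0.13). Cd36, a fatty acid uptake receptor, rose by 1.82 ± 0.29 and 1.07 ± 0.29 (adjusted p = 9.5e-05 and 0.013, limma). Of the genes with the smallest p, Abcd2, a peroxisomal transporter, rose by 2.34 ± 0.21 and 1.75 ± 0.21 (adjusted p = 1.9e-08 and 2.7e-06, limma), and Nudt7, a peroxisomal coenzyme A hydrolase, fell by 1.85 ± 0.18 and 1.83 ± 0.18 (adjusted p = 3.7e-08 and 5.7e-08, limma).

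Cyp4a12a and Cyp4a12b, hydroxylases known for male-biased expression in mouse liver, fell in both labelled sexes. Cyp4a12b was not well above background on any labelled female pesticide array and was at least 658-fold lower there (means 14.85 and 5.43, adjusted p = 1.3e-23, limma). In labelled males 1 of the 6 labelled pesticide arrays measured it above background, and it was at least 558-fold lower (means 14.64 and 5.42, adjusted p = 2.2e-23, limma). Cyp4a12a was measured above background on 4 labelled male and 2 labelled female pesticide arrays, and was at least 299.7-fold and 407-fold lower (adjusted p = 9.5e-18 and 3.2e-18, limma). Each bound sets the labelled control mean against the higher, on each pesticide array, of the probe's own signal and the dimmest signal well above background. The pair are near-identical copies whose probes may share signal.

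Between the labelled sexes on the same labelled diet, 0 of the 77 passed. Below 0 were 52 of 77 on labelled control and 64 of 77 on labelled pesticide, where 48.0% and 47.7% of all probes were. At an unadjusted p under 0.05 (limma), 1 and 0 were higher, against 3.13% and 2.2% of all probes. On the same rule 8 and 19 were lower, against 2.46% and 1.89% of all probes. Whether the 77 vary together was not tested, so these counts are not taken as independent and carry no p-value. The 19 included Cyp4a10 (-0.80 ± 0.19, adjusted p = 0.72) and Plin2 (-0.38 ± 0.15). The macrophage markers gave 0 calls in these comparisons, 0 of 12 even at an unadjusted p under 0.05, and their median difference was -0.14 and 0.06. B and plasma markers had a median difference of 0.83 on labelled pesticide, where 0 of 5 were below 0 and 2 of 5 were higher at an unadjusted p under 0.05. Of the stellate and fibrosis markers, 7 of 8 were below 0 on labelled control and 2 of 8 were lower at an unadjusted p under 0.05. Both lists gave 0 calls (limma), and their part in the same-diet differences of the 33 genes was not tested.

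A second look at single probes was possible for genes with more than 1. Of 16 further probes, 14 had the sign of the main probe in the labelled male diet comparison and 13 in each of the other 3, and none was called in the opposite direction. For Aldh3a2, a fatty aldehyde dehydrogenase, the main probe did not pass in labelled males (0.27 ± 0.17) while 2 of its other probes were higher (0.59 ± 0.21 and 0.69 ± 0.22, adjusted p = 0.040 and 0.026, limma). The probe at 0.69 was dim, with a mean log2 intensity of 5.77 over 24 arrays. The remaining probe did not pass (0.17 ± 0.16, adjusted p = 0.48, limma).

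Some calls in the labelled females were close to the threshold. Vnn1 lost its call without any 1 of 13 arrays: labelled female pesticide 1, 2, 3, 4 or 6, labelled female control 2, 4 or 6, labelled male pesticide 2, 3 or 5 and labelled male control 3 or 4 (adjusted p up to 0.12, limma). Slc22a5 lost it without any 1 of 7 arrays, labelled female pesticide 2, 3 or 4 and labelled female control 2, 3, 4 or 5 (up to 0.11). Ucp2 lost it without any 1 of 9, labelled female pesticide 1, 2, 3, 4 or 6 and labelled female control 1, 2, 3 or 5 (up to 0.088). No call of the 7 genes in labelled males, nor of Acot3, Acot4, Pdk4, Ehhadh, Acsl1 or Acaa1a in labelled females, was lost when any 1 array was left out.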

How the data were processed

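RNA of 24 liver samples was measured on single-colour Agilent arrays. The scanner files as deposited hold the intensity of each spot, per the file headers, extracted with Agilent Feature Extraction 10.10.1.1 per the submitters' processing notes. A table of 31532 probes, also deposited, holds log2 values that the authors filtered and quantile normalized, per the labels; each of its 24 columns correlated best with its own scanner file (lowest r = 0.9997).

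The median spot intensity was used without background subtraction on the log2 scale. Of 62976 spots, 3671 controls were left out; outlier spots were set to missing, spots of a probe averaged, and 56605 probes quantile normalized. A probe was tested if well above background on at least 4 of 6 arrays of 1 group (32078 probes). Limma 3.58.1 (R 4.3.3) fitted the 4 group means over 24 arrays in 1 model, two-sided, Benjamini-Hochberg adjusted p under 0.05. Differences are given with the SE of the fit. The number of arrays limits the precision. A gene was represented by its brightest probe; positions of probes are mm9, per the file headers. For a fold given as a bound, a dim array entered at its own signal or at the lowest signal called above background on that array, whichever was higher. Correlations used 100000 permutations within groups. On simulated data, the fit of labelled male control against labelled female control over 32078 probes recovered 94 of 100 changes of log2 size 1 and 61 of 100 of size 0.5.

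The 33 genes, the other lists and the pairs were chosen with earlier results of these data known. The genes named are the 33, 5 pathway genes (Ppara, Cyp4a10, Cyp4a14, Cd36, Plin2; 2 others that the rule names are not reported here), the 4 other pathway genes with the smallest p per comparison, the sex-linked genes, and up to 3 markers of a list. Alternatives were normexp correction, scaling to the 75th percentile, no or a stricter filter, outlier spots kept, slide and replicate blocks, each slide alone, only the arrays compared, array weights, trend and robust settings, the deposited table, the mean of a gene's probes, and leaving out each array. Descriptions added after the data were seen are named where they stand. Probe sequences were not aligned, so gene copies are not separated here.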

Additional observations from a re-analysis of the deposited data

Results flagged for a closer look

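For each of the 33 genes in each labelled group of 6 arrays, and for the mean of the genes, the gap of the farthest array to its nearest neighbour was divided by the range of the group. In 7 of 136 such groups this share was above the 95% critical value for 6 values; chance flags about 1 in 20 groups. Labelled male pesticide held 4 of them. Acot3 on labelled male pesticide 4 was low at 13.48, with the next array at 14.11 (share 0.668). Fgf21 and Angptl4 were both low on labelled male pesticide 2, at 8.30 with the next at 8.92 (share 0.677) and at 14.63 with the next at 15.83 (share 0.742). Cpt2 was high on labelled male pesticide 1, at 15.09 with the next at 14.79 (share 0.639). In labelled female control 4, Cpt1b was low at 7.42, with the next at 7.65 (share 0.65). In the labelled female pesticide group, Fabp1 was low on array 4 at 18.27, with the next at 18.37 (share 0.644). Fabp1 values lie near the top of the scale and move in steps of rank. Hsdl2 was low on array 5 of this group at 12.01, with the next at 12.26 (share 0.649). Leaving out labelled male pesticide 4 moved the number of genes lower in labelled males on labelled pesticide, at an unadjusted limma p under 0.05, from 18 to 12, the lowest value over all arrays left out.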

How the results depend on the processing

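Scaling to the 75th percentile raised the genes called in labelled males from 7 to 11 with the median signal and to 12 with the processed signal. Each slide was also fitted alone, with 2 arrays per group. On slides 1, 2 and 3 limma called 0, 0 and 3 genes in labelled males and 1, 1 and 1 in labelled females. Fewer arrays were used, and counts over all probes are not given for single slides. Genes below 0 on slides 1, 2 and 3 were 15, 11 and 25 in labelled males and 9, 5 and 21 in labelled females. For the difference of the same-diet comparisons they were 15, 8 and 12. The labelled female difference of the mean over the 33 genes was 0.442 and 0.011 on slides 2 and 3. Genes lower at an unadjusted p under 0.05 were 1 and 4 on labelled control on slides 1 and 2, and 3 and 6 on labelled pesticide on slides 1 and 3. Over all 3 slides 13 and 14 of the 33 genes kept 1 sign in the labelled male and female diet comparisons, and 21 and 25 in the same-diet comparisons. Among genes called or with an unadjusted p under 0.05, signs turned for Aldh3a2 on labelled control within slide 1 (0.088) and, in labelled females within slide 3, for Acot2 (-0.28) and Slc22a5 (-0.14). The cause of these moves was not tested.

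Leaving out 1 array gave 7 to 10 genes called in labelled males and 6 to 11 in labelled females, and 0 in both same-diet comparisons. Over all tested probes, 5921 to 7483 were called in labelled males and 4777 to 6526 in labelled females. Genes below 0 were 16 to 22 and 8 to 15 in the diet comparisons. They were 30 to 32 and 32 to 33 in the same-diet comparisons, and 9 to 12 for the difference of these. The mean over the 33 genes differed by 0.12 to 0.23 and 0.20 to 0.30 between the labelled diets, by -0.33 to -0.23 and -0.41 to -0.30 between the labelled sexes, and by 0.01 to 0.12 for the difference. Genes lower at an unadjusted p under 0.05 were 7 to 14 on labelled control (14 without labelled female control 2) and 12 to 25 on labelled pesticide.

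Arrays of the same replicate number correlated at -0.12 to 0.34 (median 0.078), over 0.1 in 15 of 36 pairs. Arrays of other numbers were over 0.1 in 4 of 36 pairs on the same slide (median -0.0065). On other slides they were so in 30 of 144 pairs (median -0.0267). The ranges overlapped, and 14 of 24 arrays correlated best with their own number. Arrays of the same number were thus somewhat more alike. Whether the number pairs samples was not tested, and the main fit did not use it. With the replicate number as a block, 9 genes were called in labelled males and 7 in labelled females, and 0 in the same-diet comparisons. Counts over all probes are not given for this block, so a change in these genes alone is not shown. In labelled females, Slc22a5 lost its call with the block (adjusted p = 0.053, limma) and with only the arrays compared (0.089), Ucp2 likewise (0.058 and 0.065), Vnn1 with the scaled median signal (0.084) and Acaa1a with the mean of its probes (0.057).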
